A study of Homo sapiens with 18 samples.

Results

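Integrins are cell surface receptors made of an alpha and a beta chain that hold a cell to its matrix and signal inward, and laminins are the matrix proteins, each built from an alpha, a beta and a gamma chain, that form the backbone of basement membranes. The members described here are the 35 genes, of the 20705 in the count table, whose symbols follow the integrin alpha (ITGA), integrin beta (ITGB) or laminin (LAMA, LAMB, LAMC) pattern. They comprise 15 integrin alpha genes, 8 integrin beta genes and 12 laminin genes, of which 5 encode alpha, 4 beta and 3 gamma chains. ITGA5 and ITGAL were not analysed here. ITGB1, the common beta chain, joins many alpha chains, among them the collagen receptors ITGA1, ITGA2, ITGA10 and ITGA11 and the laminin receptors ITGA3, ITGA6 and ITGA7. ITGAV pairs with several beta chains, including ITGB3, ITGB5, ITGB6 and ITGB8, while ITGB2 and its alpha partners ITGAM and ITGAX belong to leukocytes. In skin, the epidermal laminin that holds LAMA3 and LAMB3, and its receptor ITGA6 with ITGB4, anchor the epidermis to the basement membrane.

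RNA was sequenced from CHL1 and A375, human melanoma cell lines, after inhibition of CDK4/6 (CDK4/6i) or of the arginine methyltransferase PRMT5 (PRMT5i). CHL1 was grown in DMEM and is wild type for BRAF and NRAS and mutant for p53, whereas A375 was grown in RPMI-1640 and is mutant for BRAF and wild type for p53. CDK4/6i was 1 µM palbociclib for 72 hours or 6 days, PRMT5i was 500 nM GSK3326595 for 72 hours, and controls received DMSO. CHL1 had a control at 72 hours, which served both times, and A375 had a control at each time, giving 18 libraries in 9 groups of 2 replicates. Each line comes from 1 tumour, and the labels do not state whether replicates came from separate cultures, so p-values measure the spread between these libraries. The A375 libraries of 72 hours carry names of another set than the CHL1 and 6-day A375 libraries.

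Totals ran from 16213475 to 37424081 counts per library. Levels are given as CPM, counts scaled to library size with factors set within a line by the trimmed mean of M values (TMM), and levels of different genes are compared only per kilobase of the longest transcript. A gene rose or fell where the adjusted p of edgeR's quasi-likelihood test, with Benjamini-Hochberg adjustment over all 20705 genes, was under 0.05. Both CHL1 PRMT5i libraries and both A375 6-day controls stood apart in base composition: the median log2 deviation of GC-rich genes (the upper 10%) less that of GC-poor genes (the lower 10%) was -2.48 and -1.97 in the former and -2.27 and -1.12 in the latter, against -0.18 to 0.5 in the other 14 libraries. Comparisons are therefore also given with a correction for GC content, fitted over the 16332 genes with a GC value. Among melanocyte markers, MITF lay between 59.0 and 135.5 CPM in CHL1 and between 85.0 and 217.9 CPM in A375, S100B between 10.51 and 118.2 CPM in CHL1 and between 3.852 and 114.5 CPM in A375, and DCT between 33.5 and 133.1 CPM in CHL1 and 0 and 1.87 CPM in A375. TYR, TYRP1 and PMEL did not exceed 5.17 CPM in either line, and SOX10 and MLANA were not analysed here. Summed markers of other cell types ranged over the libraries of CHL1 and A375, in that order, from 7.03 to 16.2 and 0.315 to 1.01 CPM for leukocytes, 0.328 to 1.32 and 1.21 to 4.38 CPM for endothelium, 1.38 to 2.45 and 7.59 to 59.0 CPM for epithelium, and 18.6 to 41.9 and 19.9 to 58.7 CPM for fibroblasts. These sums held 2 of 6 leukocyte, 2 of 4 endothelial, 4 of 5 epithelial and 5 of 6 fibroblast markers listed. The part of such cells in the results was not tested. In bulk RNA, fewer cells of a kind and less RNA per cell cannot be told apart.

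To show the start regions of members on which the results turn, the windows of 300 bases (250 before and 50 after the start) of 6 genes follow, from the RefSeq table of build GRCh38.p14, whereas gene positions elsewhere are of GRCh37. LAMB2, LAMB3 and ITGB6 rose in A375 at both times of CDK4/6i, LAMA3 fell there at 6 days, and LAMA5 and LAMA2 had the largest fall and rise among the laminins called under PRMT5i in CHL1. Capitals mark the GC box GGGCGG, the AP-1 site TGANTCA and the TEAD site GGAATG, each searched on both strands.
LAMB2 (chr3:49133001-49133300, minus strand): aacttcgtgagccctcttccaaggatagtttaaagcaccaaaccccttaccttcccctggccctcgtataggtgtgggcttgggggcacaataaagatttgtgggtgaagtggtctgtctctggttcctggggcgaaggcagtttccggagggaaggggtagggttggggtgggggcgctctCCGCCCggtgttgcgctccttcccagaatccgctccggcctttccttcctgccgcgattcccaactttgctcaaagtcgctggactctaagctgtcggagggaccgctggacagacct
LAMB3 (chr1:209652376-209652675, minus strand): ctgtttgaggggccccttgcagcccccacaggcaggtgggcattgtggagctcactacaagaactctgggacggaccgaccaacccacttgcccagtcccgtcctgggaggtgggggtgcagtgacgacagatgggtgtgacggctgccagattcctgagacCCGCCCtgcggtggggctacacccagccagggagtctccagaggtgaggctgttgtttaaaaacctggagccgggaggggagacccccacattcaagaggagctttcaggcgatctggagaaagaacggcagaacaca
ITGB6 (chr2:160200223-160200522, minus strand): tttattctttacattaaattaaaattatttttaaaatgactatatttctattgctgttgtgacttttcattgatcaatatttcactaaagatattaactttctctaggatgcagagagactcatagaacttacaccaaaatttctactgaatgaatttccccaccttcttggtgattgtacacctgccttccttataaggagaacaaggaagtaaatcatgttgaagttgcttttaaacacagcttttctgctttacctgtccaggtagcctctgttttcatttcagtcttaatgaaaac
LAMA3 (chr18:23872770-23873069, plus strand): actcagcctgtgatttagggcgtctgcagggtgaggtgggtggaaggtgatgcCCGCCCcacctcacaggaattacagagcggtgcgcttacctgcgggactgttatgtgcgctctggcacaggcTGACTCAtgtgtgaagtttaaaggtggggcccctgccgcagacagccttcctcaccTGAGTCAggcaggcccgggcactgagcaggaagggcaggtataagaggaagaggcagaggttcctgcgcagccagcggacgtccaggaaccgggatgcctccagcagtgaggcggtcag
LAMA5 (chr20:62367263-62367562, minus strand): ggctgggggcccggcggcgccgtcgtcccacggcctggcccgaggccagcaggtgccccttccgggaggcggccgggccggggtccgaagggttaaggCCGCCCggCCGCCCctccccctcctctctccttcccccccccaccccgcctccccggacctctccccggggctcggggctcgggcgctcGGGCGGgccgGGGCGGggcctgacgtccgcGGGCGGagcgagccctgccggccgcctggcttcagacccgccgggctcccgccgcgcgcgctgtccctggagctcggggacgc
LAMA2 (chr6:128882888-128883187, plus strand): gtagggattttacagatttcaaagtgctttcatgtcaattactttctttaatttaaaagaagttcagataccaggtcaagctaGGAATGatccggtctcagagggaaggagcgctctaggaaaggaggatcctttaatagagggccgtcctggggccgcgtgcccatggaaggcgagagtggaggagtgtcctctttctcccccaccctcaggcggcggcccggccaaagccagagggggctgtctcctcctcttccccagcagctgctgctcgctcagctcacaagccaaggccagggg

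The windows ranged from 31.7% GC in ITGB6 to 82.7% GC in LAMA5, with 58.7% in LAMB2, 61.3% in LAMB3, 61.7% in LAMA3 and 55.3% in LAMA2. LAMA5 held 5 GC boxes, LAMB2, LAMB3 and LAMA3 held 1 each, and the other windows shown held none. LAMA3 was the member with AP-1 letters in its window, at 2 positions, and LAMA2 held 1 TEAD match. Windows were listed for 25 of the 35 members, and the most upstream one was used where a gene had several. They were not matched to the longest transcript. A window, such as the 1 listed for LAMA3, need not lie where the transcripts counted here begin. The shares below are of unlike units, since members give 1 window per gene and the whole table gives every window listed. A GC box was found in 13 of these 25, 52% against 45% of all 35116 windows in the table. AP-1 letters were in 1 of 25 (4% against 7.71%), TEAD letters in 3 of 25 (12% against 14%), and the E2F letters TTTCCCGC or TTTGGCGC in 0 of 25 against 2.27%. These matches describe the letters in the window and do not show binding.

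The untreated lines differed widely in these genes. A375 carried the laminin receptor ITGA3, the hemidesmosome chain ITGB4 and the laminins LAMA1 and LAMB3 at levels far above CHL1, whereas CHL1 carried more ITGA9, ITGA7, ITGAV and LAMA3. Of the 35 members, 26 differed between the 72-hour controls (20 higher and 6 lower in A375), against 58.9% of all genes, and the median log2 difference (A375 over CHL1) was 1.31 over the members and 0.02 over all genes. Members took 0.612% and 0.665% of counts in the A375 controls and 0.21% and 0.217% in the CHL1 controls. The difference was fitted over all 18 libraries, while CPM was scaled within each line, and line, medium and library set cannot be told apart. With the 6-day A375 control, which shares the library set of CHL1, 29 members differed, where 61% of all genes did. That control differs in time from the one of CHL1, however, and was a group that stood apart in base composition.

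Among laminin ligands, the order per kilobase differed between lines. In the CHL1 control LAMB2 led at 37.2 ± 1.13 CPM per kilobase (SD, n = 2), followed by LAMB1 at 32.7 ± 2.78 and LAMC1 at 30.6 ± 0.0178, and the last 2 lay within 1 SD of each other. In the A375 control LAMB1 led at 160.4 ± 11.0 CPM per kilobase, ahead of LAMC1 at 124 ± 3.95 and LAMA5, the alpha chain of many epithelial and vascular basement membranes, at 85.3 ± 5.63. The libraries of LAMB1, LAMC1 and LAMA5 did not overlap in A375. LAMB1 stood at 233.5 and 207 CPM in the CHL1 controls and 1133 and 1028 CPM in the A375 controls, a log2 difference of 2.07 (SE 0.18, edgeR adjusted p = 1.12e-08). LAMA5 stood at 64.2 and 78.0 CPM in CHL1 and 1020 and 929 CPM in A375, a log2 difference of 3.55 (SE 0.33, edgeR adjusted p = 2.68e-08). LAMA3 was lower in A375, at 20.3 and 18.4 CPM against 58.8 and 61.9 CPM in CHL1 (log2 difference -1.87, SE 0.17, edgeR adjusted p = 1.88e-08).

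Its epidermal partner LAMB3 went the other way. LAMB3 was at 0.606 and 0.361 CPM in the CHL1 controls and 56.9 and 68.2 CPM in those of A375, a log2 difference of 6.77 (SE 0.39, edgeR adjusted p = 4.52e-11). LAMA1, the alpha chain of embryonic laminin, had 1 count in both CHL1 controls together and 4442 in those of A375, a depth-scaled ratio of 7223 with a 95% exact counting interval of 1296 to 285300. Such an interval covers counting error only. LAMC1, the widely used gamma chain, was nearly alike in both CHL1 libraries, at 242.3 and 242.1 CPM, and at 962.9 and 1007 CPM in A375 (log2 difference 1.8, SE 0.16, edgeR adjusted p = 1.29e-08).

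Among receptors, ITGB1 led the beta chains of both lines at 73.4 ± 1.92 CPM per kilobase in CHL1 and 73.2 ± 9.13 in A375, and it was not called between them. ITGB8, a chain that pairs with ITGAV, came next in CHL1 at 20.8 ± 2.46 CPM per kilobase, ahead of ITGB5 at 10.3 ± 0.328. In A375 the next were ITGB4 at 55.4 ± 5.08 and ITGB5 at 46.8 ± 0.912 CPM per kilobase. ITGB4 was at 7.95 and 9.33 CPM in CHL1 against 348 and 305.6 CPM in A375 (log2 difference 5.01, SE 0.4, edgeR adjusted p = 3.77e-09). ITGB3, the beta chain of the vitronectin receptor, was at 2.52 and 2.82 CPM against 112.7 and 106.5 CPM (log2 difference 5.13, SE 0.23, edgeR adjusted p = 1.26e-12). The libraries of the lines lay far apart for both beta chains.

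The alpha chains changed places. In CHL1 the muscle laminin receptor ITGA7 (16.9 ± 1.58 CPM per kilobase) and ITGA9, a receptor for tenascin and osteopontin (16.7 ± 0.634), did not differ beyond their SD, and ITGA6 followed at 11.2 ± 0.836. In A375 ITGA3 led at 157.6 ± 1.68 CPM per kilobase, ahead of ITGA6 at 24.7 ± 2.27 and ITGA2 at 14.7 ± 1.4. ITGA3 was at 1.66 and 1.58 CPM in CHL1 and 869.8 and 856.8 CPM in A375, a 454-fold difference (log2 8.83, SE 0.24, edgeR adjusted p = 1.54e-14). ITGA9 went the opposite way, from 127.6 and 134.7 CPM in CHL1 to 3.78 and 2.11 CPM in A375 (log2 difference -5.7, SE 0.31, edgeR adjusted p = 1.93e-11). ITGA7 was at 74.7 and 65.5 CPM in CHL1 and 17.7 and 13.5 CPM in A375 (log2 difference -2.4, SE 0.23, edgeR adjusted p = 5.09e-08). ITGAX, a leukocyte chain, was at 8.19 and 4.54 CPM in A375 and had 1 count in CHL1. The leukocyte marker PTPRC lay between 0.157 and 0.614 CPM in all A375 libraries and between 6.863 and 15.71 CPM in those of CHL1.

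**Figure D1:**
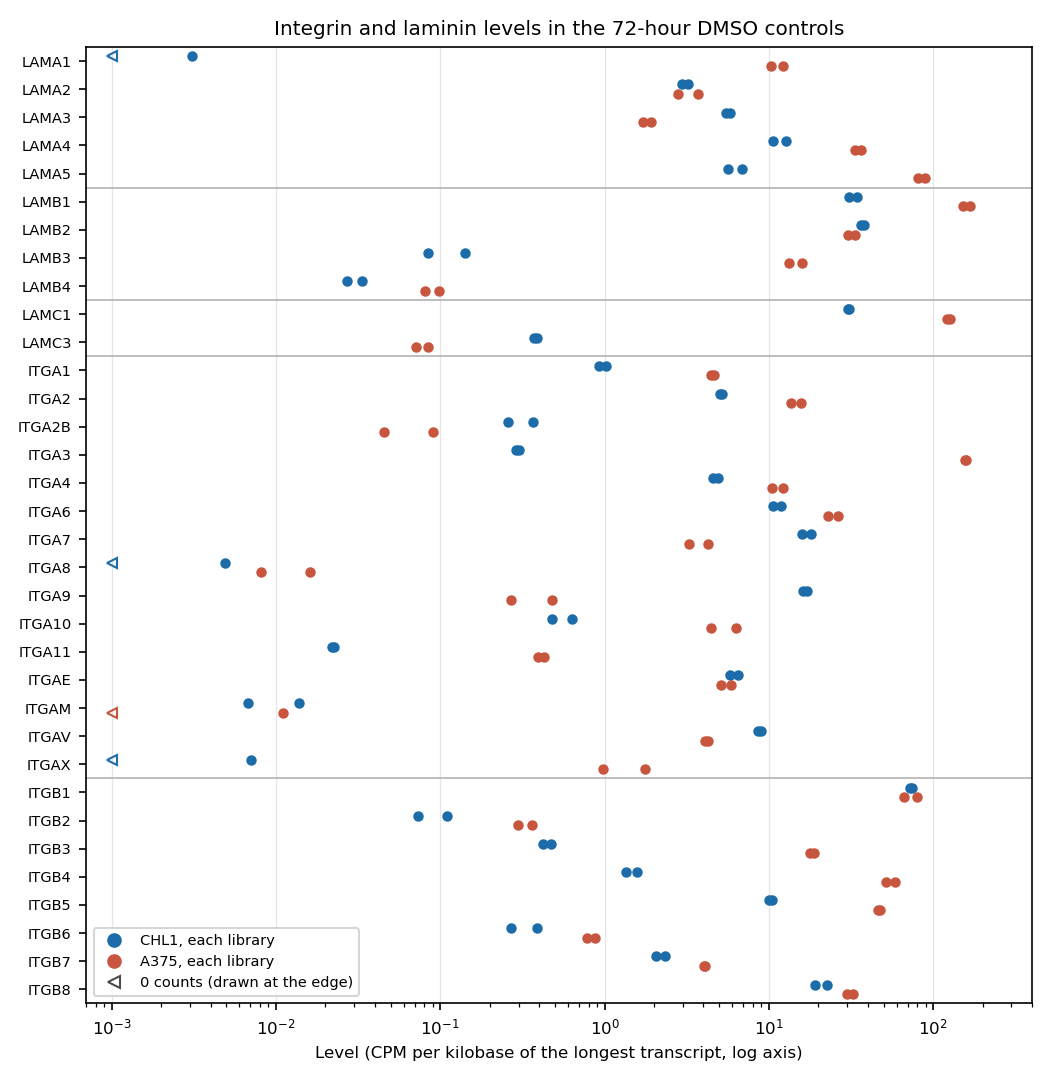
Level of each gene reported here in the 72-hour DMSO controls, in CPM per kilobase of the longest transcript on a log axis, with each library as a point (blue CHL1, red A375) and libraries with 0 counts as open triangles at the edge. ITGA3, ITGB4, LAMB3 and LAMA1 lay far to the right in A375, and ITGA9 and ITGA7 to the right in CHL1.

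The A375 controls of both times also differed from each other, although time and library set cannot be told apart and no test was made. Of the 30 members at 1 CPM or more in either control, 3 were at least 2-fold higher in mean at 6 days with both libraries apart, and 8 were at least 2-fold lower. The share of all genes that pass this rule was not computed. Whether these counts are particular to the members is therefore not known. The higher members were ITGA1 (464.3 and 122.7 against 47.54 and 50.02 CPM), ITGB8 (1455 and 632.1 against 293.1 and 268.2 CPM) and ITGA9 (25.3 and 14.9 against 3.78 and 2.11 CPM). Those lower included ITGA3, ITGAX, ITGB4, ITGB7, LAMA1, LAMA5 and LAMB3, with ITGB4 at 33.6 and 100.4 CPM against 348 and 305.6 CPM. The 2 libraries of the 6-day control were themselves unlike, as ITGA1 and ITGB4 show, and had a biological coefficient of variation of 0.301 against 0.0684 to 0.193 in the other groups. A375 CDK4/6i at 6 days was therefore set against its own control.

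Across the 6 treatment comparisons, 27 members were called in at least 1 and 8 in none. The matching share of all genes was not computed. PRMT5i in CHL1 alone called 54% of all genes, and CDK4/6i at 6 days in A375 called 43.1%. The members never called included ITGA6, ITGA8, ITGA10, ITGAE, LAMA1, LAMB4 and LAMC1. Among them, ITGA6 lay between 45.1 and 74.6 CPM in CHL1 and between 93.7 and 152.9 CPM in A375, and LAMC1 between 210.1 and 264.7 CPM in CHL1 and between 593.9 and 1175 CPM in A375, where its 6-day controls were the lowest libraries. No member rose in all 4 CDK4/6i comparisons and none fell in all 4. ITGA7 rose and ITGA9 fell in 3 of the 4, all but CHL1 at 72 hours, and 8 members rose in some comparisons and fell in others. These counts are without the GC correction, and their shares over all genes were not computed. Comparisons of a line at 72 hours share their control libraries, as do both times in CHL1.

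**Figure D2:**
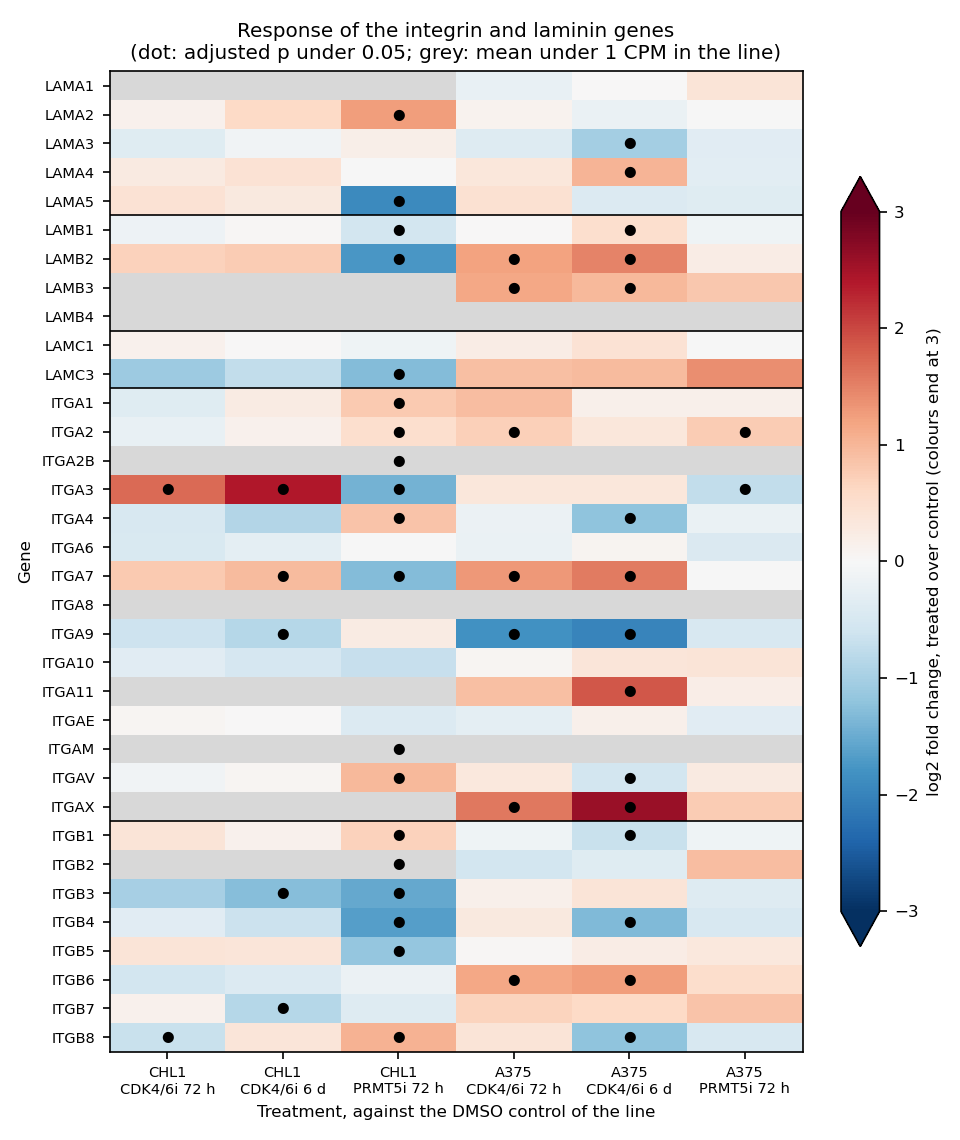
Log2 fold change of each gene reported here (rows, grouped by laminin chain and integrin chain) in the 6 treatment comparisons (columns), red for higher and blue for lower than control, with a dot where the edgeR adjusted p was under 0.05 and grey where the gene averaged under 1 CPM in the line. The CHL1 PRMT5i column has 19 dots and the A375 6-day column 15, whereas CHL1 CDK4/6i at 72 hours and A375 PRMT5i have 2 each.

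In CHL1, 72 hours of CDK4/6i moved 2 members: ITGA3, the laminin receptor alpha chain, rose and ITGB8 fell. That is 2 of 35 against 4.98% of all genes, and the median log2 fold change was 0.05 over members and 0 over all genes. ITGA3 went from 1.66 and 1.58 CPM to 4.97 and 5.51 CPM, with treated libraries above both controls, a 3.23-fold rise (log2 1.69, SE 0.24, edgeR adjusted p = 0.00377). ITGB8 went from 202.4 and 171.2 CPM to 114.1 and 120.5 CPM (log2 -0.67, SE 0.15, edgeR adjusted p = 0.0318). The laminin LAMB2 was at 216.2 and 207.1 CPM in controls and 349.6 and 334.3 CPM after treatment, which did not pass the test (log2 0.69, SE 0.24, edgeR adjusted p = 0.127). ITGA3 lost its call without either control library and ITGB8 without any 1 of the 4, the log2 fold changes then ranging from 1.61 to 1.76 and from -0.79 to -0.55. The count rose to 7 in a fit without the PRMT5i libraries, where 10.1% of all genes were called, and to 8 with the GC correction, where 13.7% were.

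Of 35 adhesion complex genes (talins, kindlins, vinculin and the like), 0 were called in that comparison by edgeR, DESeq2 or limma voom. At an unadjusted edgeR p under 0.05 were 3 of these 35 and 4161 of all 20705 genes. With the GC correction 2 of the 35 were called lower, where 13.7% of genes were called. Among 24 further matrix ligands and basement membrane genes, 1 rose: TGFBI, a secreted matrix protein that binds integrins, went from 106.9 and 123 CPM to 276.5 and 302.5 CPM (log2 1.33, SE 0.17, edgeR adjusted p = 0.00215). Of 21 membrane partners of integrins, 1 rose and 1 fell. The tetraspanin CD82 went from 8.27 and 5.91 CPM to 19.9 and 12.7 CPM (log2 1.2, SE 0.25, edgeR adjusted p = 0.0205). The melanoma proteoglycan CSPG4 went from 111.4 and 104.5 CPM to 58.0 and 53.6 CPM (log2 -0.95, SE 0.25, edgeR adjusted p = 0.0486).

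After 6 days of CDK4/6i in CHL1, the laminin receptors ITGA3 and ITGA7 rose and ITGB3, ITGB7 and ITGA9 fell, 5 of 35 members against 16.6% of all genes. The median log2 fold change was 0.13 over members and 0.03 over all genes, or 0.08 and 0 with the GC correction. ITGA3 reached 9.02 and 8.16 CPM, 5.3-fold the 1.66 and 1.58 CPM of the controls (log2 2.41, SE 0.24, edgeR adjusted p = 0.00033), and it kept its call when any 1 library was left out. ITGA7 went from 74.7 and 65.5 CPM to 122 and 150.8 CPM (log2 0.96, SE 0.23, edgeR adjusted p = 0.014). For both alpha chains the treated libraries lay above all controls.

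Both ITGB3 and ITGA9 lay lower in every treated library. ITGB3 went from 2.52 and 2.82 CPM to 1.11 and 1.1 CPM (log2 -1.27, SE 0.28, edgeR adjusted p = 0.011). ITGA9 went from 127.6 and 134.7 CPM to 62.5 and 82.7 CPM (log2 -0.85, SE 0.18, edgeR adjusted p = 0.00852). ITGB7, a leukocyte homing chain, went from 6.51 and 5.78 CPM to 4.06 and 2.69 CPM (log2 -0.86, SE 0.26, edgeR adjusted p = 0.0459). ITGB3 and ITGA9 lost their calls without either control library (log2 -1.35 to -1.18 and -1.07 to -0.66 over the refits), and ITGA7 and ITGB7 kept theirs in 1 of 4 refits, that without treated replicate 1 (0.8 to 1.11 and -1.19 to -0.6). The members called changed with the library left out, and with the GC correction 12 were called, where 28.3% of genes were. Time under drug and time in culture cannot be told apart in the direct test of 6 days against 72 hours either. By DESeq2 that test called 1 member, where 0.309% of all genes were called, and by limma voom 0, and the count moved without 6-day replicate 1. The edgeR test called 0 members (0.0145% of all genes). At an unadjusted edgeR p under 0.05 were 1634 of 20705 genes and 5 of 35 members. The closest was ITGB8, at 114.1 and 120.5 CPM at 72 hours and 228.1 and 252.2 CPM at 6 days (log2 1.03, SE 0.16, edgeR adjusted p = 0.0749), a value noted after the results were seen.

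Among the related genes at 6 days in CHL1, 3 of 35 adhesion complex genes rose and 3 fell, 4 of 24 ligands rose and 2 fell, and 7 of 21 membrane partners rose and 1 fell. These are 17.1%, 25% and 38.1% of the lists, where 16.6% of all genes were called, and with the GC correction 22.9%, 37.5% and 47.6%, where 28.3% were. EDIL3, a secreted ligand of ITGAV integrins, went from 14.8 and 12.9 CPM to 52.4 and 62.8 CPM (log2 2.05, SE 0.18, edgeR adjusted p = 0.000218). The caveolin CAV2 went from 14.9 and 9.29 CPM to 51.0 and 31.9 CPM (log2 1.78, SE 0.29, edgeR adjusted p = 0.00249), and CSPG4 fell to 38.0 and 32.7 CPM (log2 -1.61, SE 0.25, edgeR adjusted p = 0.00213). NTN4, a laminin-related netrin, was at 17.3 and 21.7 CPM in controls and 12.2 and 10.2 CPM after treatment (log2 -0.8, SE 0.2, edgeR adjusted p = 0.0201). Among adhesion complex genes that averaged 1 CPM or more in the line, the largest rise and fall were those of LIMS2 (log2 0.78, SE 0.22, edgeR adjusted p = 0.0317) and ITGB1BP2 (log2 -1.57, SE 0.27, edgeR adjusted p = 0.00305).

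In A375, 72 hours of CDK4/6i raised 6 members, namely LAMB2, LAMB3, ITGA7, ITGA2, ITGAX and ITGB6, and lowered ITGA9. These 7 of 35 compare with 13.3% of all genes, and the median log2 fold change was 0.3 over members and 0 over all genes, or 0.16 and 0 with the GC correction. LAMB2, a beta chain of vascular and neuromuscular laminins, went from 191.3 and 172 CPM to 444.5 and 388 CPM, a 2.29-fold rise (log2 1.2, SE 0.21, edgeR adjusted p = 0.00128). LAMB3 went from 56.9 and 68.2 CPM to 134 and 145.7 CPM (log2 1.16, SE 0.29, edgeR adjusted p = 0.0136). All treated libraries lay above all controls for both laminin beta chains. LAMA3, an epidermal partner of LAMB3, was at 20.3 and 18.4 CPM in controls and 15.4 and 14.1 CPM after treatment, which did not pass the test.

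Of the receptors, ITGAX rose 3.01-fold, from 8.19 and 4.54 CPM to 21.1 and 17.3 CPM (log2 1.59, SE 0.32, edgeR adjusted p = 0.00403). ITGA7 rose 2.46-fold, from 17.7 and 13.5 CPM to 41.2 and 35.7 CPM (log2 1.3, SE 0.21, edgeR adjusted p = 0.000685). ITGA9 fell from 3.78 and 2.11 CPM to 0.825 and 0.833 CPM (log2 -1.82, SE 0.4, edgeR adjusted p = 0.00693), and no other member was called lower. ITGB6, an epithelial partner of ITGAV, and the collagen receptor ITGA2 rose by log2 1.15 and 0.72. The set of members called shrank when any 1 of the 4 libraries was left out. LAMB2 and ITGA7 kept their calls in all 4 such refits, ITGAX lost its call without control replicate 2 (log2 1.25 to 2.08 over the refits), and ITGA9 in all refits but that without control replicate 2 (log2 -2.16 to -1.34). LAMB3, ITGA2 and ITGB6 lost their calls in each refit, with LAMB3 at log2 1.04 to 1.32. A fit of the A375 libraries of 72 hours alone called 15 members, where 31% of all genes were called, and with the replicate number as a term in that fit 21 members (16 higher and 5 lower), where 42.3% were.

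Of the 24 further ligands 12 rose and 1 fell, where 13.3% of all genes were called. Osteopontin (SPP1), a ligand of ITGAV and ITGA9 integrins, went from 8.61 and 13.0 CPM to 62.8 and 57.9 CPM (log2 2.48, SE 0.26, edgeR adjusted p = 2.88e-05), and it had at most 1 count in any CHL1 library. EFEMP1, a fibulin, fell from 12.5 and 16.6 CPM to 6.76 and 9.01 CPM (log2 -0.88, SE 0.24, edgeR adjusted p = 0.0216). Of the adhesion complex genes, 2 of 35 rose and 3 fell. The talin gene TLN2 went from 34.8 and 30.9 CPM to 91.9 and 88.8 CPM (log2 1.46, SE 0.17, edgeR adjusted p = 5.52e-05), and LIMS1, a partner of integrin-linked kinase, from 92.4 and 83.6 CPM to 49.4 and 50.3 CPM (log2 -0.82, SE 0.19, edgeR adjusted p = 0.0083). Of 21 membrane partners 2 rose, with the syndecan SDC2 highest in change (log2 1.21, SE 0.36, edgeR adjusted p = 0.0342).

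After 6 days in A375, 8 members rose and 7 fell, 15 of 35 against 43.1% of all genes, with a median log2 fold change of 0.34 over members and 0.1 over all genes, or 0.1 and 0.06 with the GC correction. The rises were again in LAMB2, LAMB3, ITGA7, ITGAX and ITGB6, with LAMA4, LAMB1 and ITGA11 beside them. ITGAX went from 2.32 and 1.98 CPM in the 6-day controls to 17.1 and 8.93 CPM, a 6.03-fold rise (log2 2.59, SE 0.34, edgeR adjusted p = 4.66e-05). ITGA11, a collagen receptor of mesenchymal cells, went from 1.98 and 3.3 CPM to 6.52 and 12.6 CPM (log2 1.86, SE 0.33, edgeR adjusted p = 0.000468). ITGA7 went from 14.8 and 13.6 CPM to 46.1 and 38.1 CPM (log2 1.57, SE 0.2, edgeR adjusted p = 4.74e-05). LAMB2 went from 92.5 and 140.3 CPM to 331.7 and 320.7 CPM (log2 1.49, SE 0.21, edgeR adjusted p = 7.71e-05). The treated libraries of these 4 genes lay above both controls. LAMA4, the alpha chain of vascular laminin, went from 282.3 and 192.1 CPM to 495.3 and 469.5 CPM (log2 1.02, SE 0.2, edgeR adjusted p = 0.000831).

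Of these rises ITGB6 and LAMB3 kept their calls in 3 of 4 refits without 1 library, LAMB1 in 2 and the others named in 4.

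The falls were in ITGA9, ITGB4, ITGA4, ITGB8, LAMA3, ITGB1 and ITGAV. ITGA9 went from 25.3 and 14.9 CPM to 5.74 and 4.44 CPM (log2 -1.98, SE 0.31, edgeR adjusted p = 0.000184). ITGB4 went from 33.6 and 100.4 CPM to 19.8 and 33.7 CPM (log2 -1.32, SE 0.36, edgeR adjusted p = 0.00764). Its groups overlapped, and it lost its call without control replicate 2 or treated replicate 1 (log2 -1.91 to -0.33 over the refits). ITGA4, the chain that pairs with ITGB1 to bind VCAM1 and fibronectin, went from 140.4 and 98.5 CPM to 56.9 and 47.0 CPM (log2 -1.2, SE 0.2, edgeR adjusted p = 0.000286). ITGB8 went from 1455 and 632.1 CPM to 466.2 and 445.5 CPM (log2 -1.2, SE 0.29, edgeR adjusted p = 0.00377), or log2 -0.47 without control replicate 1. LAMA3 went from 11.9 and 11.2 CPM to 5.97 and 5.5 CPM (log2 -1.01, SE 0.2, edgeR adjusted p = 0.00114), so that it lay lower while LAMB3, its partner chain, lay higher.

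Several of these 6-day results changed with the GC correction, under which 13 members were called, against 37.9% of genes. ITGAV turned from a fall (log2 -0.55, edgeR adjusted p = 0.0211) to a rise (log2 0.66, edgeR adjusted p = 0.00488), and ITGB1 went from log2 -0.66 to 0.02. ITGB8, LAMB1 and LAMB3 were no longer called, at log2 -0.43, 0.13 and 0.48. LAMB2, ITGA7, ITGAX, ITGA11, ITGB6, LAMA4, ITGA9, ITGB4, ITGA4 and LAMA3 kept direction and call, with log2 values from -2.22 in ITGA9 to 2.03 in ITGAX. Against the 72-hour control in place of the 6-day one, ITGA9 and ITGB8 turned to log2 0.79 and 0.7, neither of them called. The test of the response at 6 days minus that at 72 hours called 0 members (1.08% of all genes). At an unadjusted edgeR p under 0.05 were 4118 of 20705 genes and 8 of 35 members. DESeq2 called 3 members, where 5.53% of all genes were called, and limma voom 0. The count moved without either 6-day control library, and the share of all genes called rose with it. Such a fit leaves 1 library in a group.

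**Figure D3:**
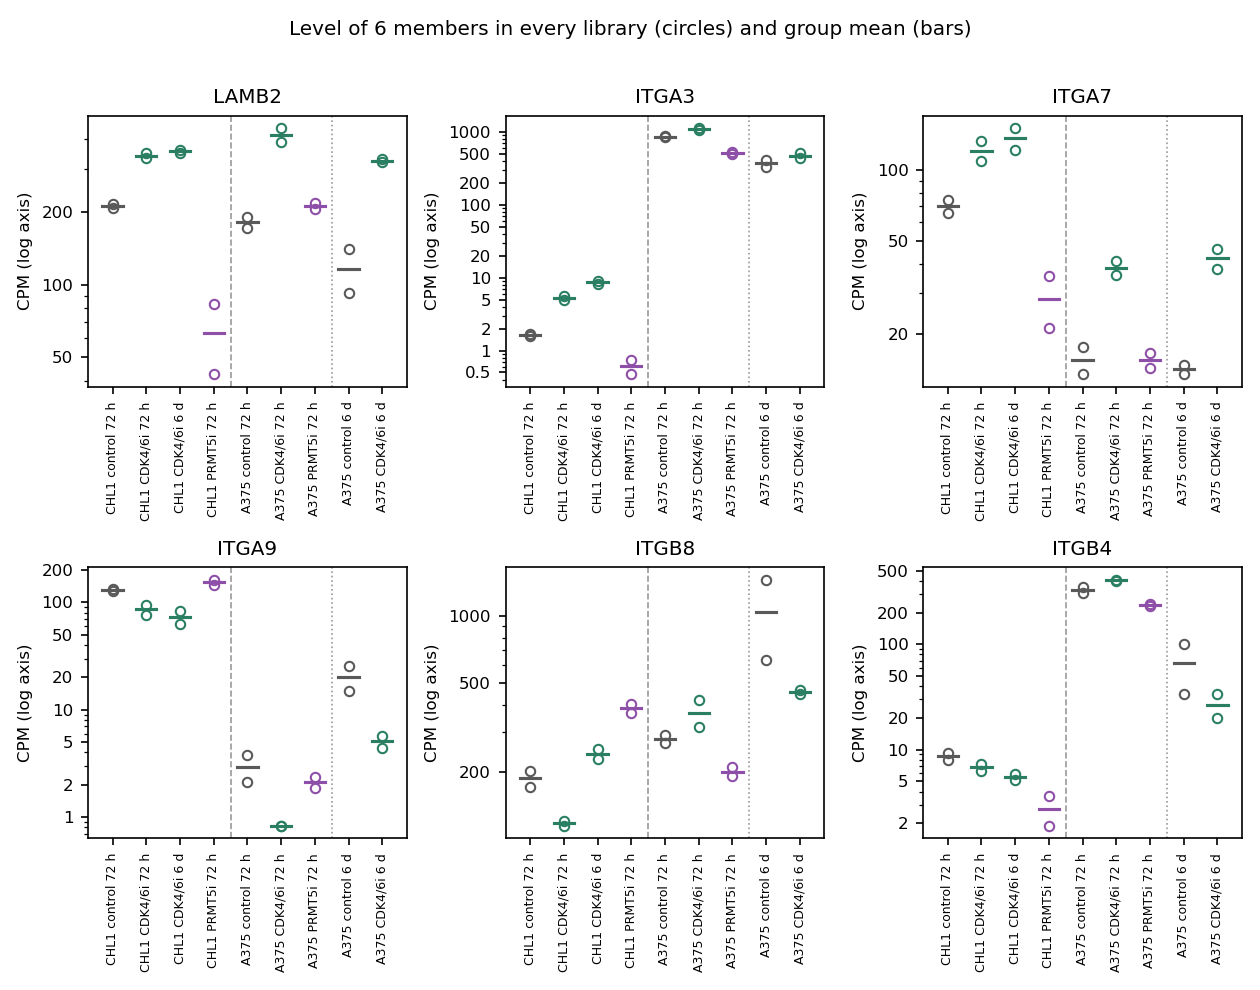
Level in CPM (log axis) of LAMB2, ITGA3, ITGA7, ITGA9, ITGB8 and ITGB4 in every library, with circles for libraries, bars for group means and dashed and dotted lines between CHL1, A375 at 72 hours and A375 at 6 days. Treated ITGA7 lay above its controls in each CDK4/6i group, from 13.5 to 74.7 CPM in controls and from 35.7 to 150.8 CPM after treatment, and ITGB8 in the 6-day A375 controls stood at 632.1 and 1455 CPM.

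At 6 days in A375, 11 of 35 adhesion complex genes rose and 5 fell, 9 of 24 ligands rose and 4 fell, and 8 of 21 membrane partners rose and 3 fell. These are 45.7%, 54.2% and 52.4% of the lists, where 43.1% of all genes were called. With the GC correction, where 37.9% of genes were called, 5 adhesion complex genes rose and 7 fell, 7 ligands rose and 5 fell, and 6 partners rose and 4 fell. TGFBI went from 151 and 125.7 CPM to 514.5 and 370.2 CPM (log2 1.68, SE 0.2, edgeR adjusted p = 2.84e-05), and CD82 from 2.91 and 3.36 CPM to 9.92 and 10.6 CPM (log2 1.71, SE 0.24, edgeR adjusted p = 7.73e-05). EDIL3 went from 50.2 and 14.7 CPM to 5.57 and 4.02 CPM (log2 -2.76, SE 0.41, edgeR adjusted p = 0.000121), and CAV2 from 68.1 and 74.6 CPM to 15.02 and 19.7 CPM (log2 -2.04, SE 0.19, edgeR adjusted p = 4.56e-06). Both had risen in CHL1 at 6 days, and the difference between lines at 6 days was not tested here. LIMS1 fell from 196.8 and 148.1 CPM to 46.7 and 56.8 CPM (log2 -1.74, SE 0.19, edgeR adjusted p = 1.18e-05), and the kindlin gene FERMT1 rose (log2 1.24, SE 0.23, edgeR adjusted p = 0.000709).

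PRMT5i in CHL1 moved 8 members up and 11 down, 19 of 35 where 54% of all genes were called, a share close to that of the whole table. The median log2 fold change was -0.02 over members and 0 over all genes. The members that fell had a median GC content of 60.7% in their longest transcript (49.7% to 66.4%), and those that rose 39.1% (33.5% to 54.2%). Across the 35 members the fold change and GC content had a Spearman correlation of -0.71, beside -0.838 across 12855 of 14500 genes at 1 CPM or more, of which 88.7% have a GC value. These genes share the same libraries and are not independent. With the GC correction 11 members were called, 5 higher and 6 lower, against 29.2% of genes. These are not all among the 19, since calls were lost and others gained. LAMA2, ITGAM, LAMB2, LAMA5, ITGB3 and ITGB5 were called both ways. Of the laminins, 1 was called higher as deposited and 2 with the correction.

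Among the laminins, LAMA2, the alpha chain of muscle laminin, rose from 29.5 and 32.2 CPM to 72.1 and 75.3 CPM, a 2.39-fold change (log2 1.26, SE 0.23, edgeR adjusted p = 7e-04). It stayed at log2 1.24 with the GC correction (edgeR adjusted p = 0.00135). LAMB2 fell from 216.2 and 207.1 CPM to 42.5 and 83.5 CPM (log2 -1.75, SE 0.25, edgeR adjusted p = 0.000199), and was called at log2 -0.59 with the correction. LAMA5 fell from 64.2 and 78.0 CPM to 11.1 and 26.8 CPM (log2 -1.91, SE 0.31, edgeR adjusted p = 0.000402), and was at log2 -0.52 with it (edgeR adjusted p = 0.0382). The treated libraries of LAMB2 and LAMA5 lay below both controls but differed between themselves, the one with the stronger GC trend being lower. LAMC1, with 231.5 and 210.1 CPM against 242.3 and 242.1 CPM, was not called.

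Among the receptors, ITGB3 went from 2.52 and 2.82 CPM to 0.972 and 0.876 CPM (log2 -1.53, SE 0.28, edgeR adjusted p = 0.000761) and stayed at log2 -1.22 with the correction (edgeR adjusted p = 0.0063). ITGB4 went from 7.95 and 9.33 CPM to 1.88 and 3.6 CPM (log2 -1.66, SE 0.28, edgeR adjusted p = 0.000472) and was not called with it, at log2 -0.34. ITGB8 went from 202.4 and 171.2 CPM to 366.7 and 403.9 CPM (log2 1.04, SE 0.16, edgeR adjusted p = 0.000242) and was at log2 0.11 with it. ITGAV went from 71.6 and 68.5 CPM to 138 and 136.7 CPM (log2 0.97, SE 0.16, edgeR adjusted p = 0.000357). ITGA4 went from 31.1 and 33.5 CPM to 53.2 and 63.9 CPM (log2 0.86, SE 0.29, edgeR adjusted p = 0.0249). Both alpha chains turned under the correction, to log2 -0.42 and -0.05, and were then not called. ITGA4 also lost its call without either control library or treated replicate 2, at log2 0.72 to 0.98 over the 4 refits.

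The other members called were ITGA1, ITGA2, ITGB1 and ITGAM, which rose, and ITGB2, ITGA2B, ITGA3, ITGA7, LAMC3, ITGB5 and LAMB1, which fell. Of these, ITGB5 (log2 -1.15, and -0.34 with the correction) and ITGAM kept their calls with the correction. ITGAM rested on 19 counts against 3, a ratio of 6.36 with a 95% exact counting interval of 1.87 to 33.55. ITGA7 went from 74.7 and 65.5 CPM to 21.4 and 35.3 CPM, and its log2 fold change of -1.31 became -0.11 with the correction. ITGB1 went from 419.7 and 404.5 CPM to 722.7 and 614 CPM, and its log2 fold change of 0.7 became -0.2.

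**Figure D4:**
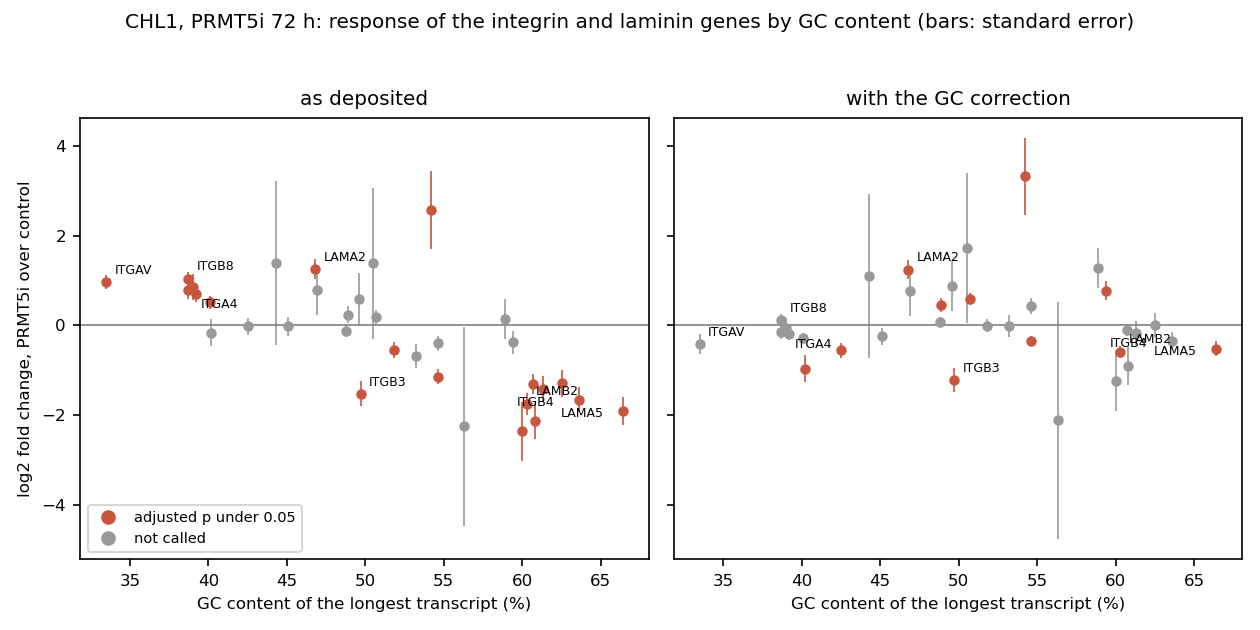
Log2 fold change of the genes reported here under PRMT5i in CHL1 (vertical axis, bars of 1 standard error) against the GC content of the longest transcript in percent, from counts as deposited (left) and with the GC correction (right), red where the adjusted p was under 0.05. On the left ITGAV, ITGB8 and ITGA4 lay above 0 and LAMA5 and ITGB4 below at the GC-rich end, and on the right LAMA2 stayed at 1.24 and ITGB3 at -1.22.

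Of the related genes under PRMT5i in CHL1, 4 of 35 adhesion complex genes rose and 20 fell, 4 of 24 ligands rose and 6 fell, and 4 of 21 membrane partners rose and 13 fell. These are 68.6%, 41.7% and 81% of the lists, where 54% of all genes were called. With the GC correction the counts became 3 and 8, 3 and 6, and 2 and 6, which are 31.4%, 37.5% and 38.1% of the lists where 29.2% of genes were called. The basement membrane proteoglycan AGRN fell from 328.5 and 340.3 CPM to 35.1 and 72.4 CPM (log2 -2.64, SE 0.27, edgeR adjusted p = 8.32e-05), and was at log2 -1.18 with the correction. Filamin A (FLNA) fell from 665.5 and 624 CPM to 121.5 and 222.8 CPM (log2 -1.91, SE 0.24, edgeR adjusted p = 0.000118), and was at log2 -0.66 with it. CSPG4 fell to 18 and 35.1 CPM (log2 -2.02, SE 0.26, edgeR adjusted p = 0.000124). The paxillin relative LPXN rose by log2 1.16 and NTN4 by 0.8, and both kept their calls with the correction, whereas CAV2 went from log2 1.38 to 0.2.

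In A375, PRMT5i moved 2 members, with ITGA2 higher and ITGA3 lower, against 2.61% of all genes. The median log2 fold change was 0.16 over members and 0 over all genes. ITGA2 went from 107.7 and 123.2 CPM to 174.3 and 220.3 CPM (log2 0.77, SE 0.19, edgeR adjusted p = 0.0403), a collagen receptor that CDK4/6i at 72 hours also raised. ITGA3 went from 869.8 and 856.8 CPM to 493.6 and 535.8 CPM (log2 -0.75, SE 0.19, edgeR adjusted p = 0.0469), while in CHL1 its log2 fold change of -1.42 became -0.18, not called, with the GC correction. Both calls lay near the threshold and were lost without any 1 of the 4 libraries, with ITGA2 at log2 0.59 to 0.93 and ITGA3 at -0.81 to -0.69. By limma voom 0 members were called, where 1.12% of all genes were. A fit of the A375 libraries of 72 hours alone called 9 members, where 15.8% of all genes were called, and with the replicate number as a term in that fit 21 members (12 higher and 9 lower), where 29.5% were. Among related genes, 2 of 24 ligands rose. EFEMP1 went from 12.5 and 16.6 CPM to 38.9 and 40.2 CPM (log2 1.44, SE 0.23, edgeR adjusted p = 0.0058). Of 35 adhesion complex genes, 0 were called by edgeR, DESeq2 or limma voom. At an unadjusted edgeR p under 0.05 were 5 of these 35 and 3332 of all 20705 genes. CD82 was the 1 of 21 membrane partners that rose (log2 1.1, SE 0.24, edgeR adjusted p = 0.0262).

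The lines were then compared in their responses, as A375 minus CHL1. For CDK4/6i at 72 hours 1 member differed, against 0.642% of all genes: ITGA3, with a log2 fold change of 1.69 in CHL1 and 0.34 in A375 (difference -1.3, SE 0.26, edgeR adjusted p = 0.0276). That call was lost without any 1 of the 8 libraries, at -1.37 to -1.19. For ITGA7, ITGA9 and LAMB2, whose fold changes had the same sign in both lines, the difference was not called, at 0.57 (SE 0.31), -1.16 (SE 0.46) and 0.56 (SE 0.33). For PRMT5i 13 members differed, 9 higher and 4 lower in A375, against 40.9% of all genes. With the GC correction 7 differed, against 20.7% of genes. LAMB2 differed by log2 2 (SE 0.33, edgeR adjusted p = 0.00033), with -1.75 in CHL1 and 0.22 in A375, and by 0.76 with the correction (edgeR adjusted p = 0.00654). LAMA2 differed by log2 -1.25 (SE 0.33, edgeR adjusted p = 0.00549) and by -1.24 with the correction (edgeR adjusted p = 0.00795). LAMA5 differed by 1.57 as deposited and by 0.04, not called, with the correction.

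The study's methods give HTSeq at its default settings, which count a read by its strand, whereas the library kit, TruSeq RNA, is not stated to keep strand. The values of ITGA2, ITGA6, LAMA4 and LAMA5 are therefore uncertain, because antisense genes are annotated beside them. The same would hold for any other member with an antisense gene.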

How the data were processed

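The study sequenced poly(A)-selected RNA of 18 cell line libraries with paired reads. Per the labels, the authors used FastQC 0.11.6, HISAT2 2.0.4, Picard 2.17.3, SAMtools 1.18, HTSeq 0.11.2 and edgeR on build GRCh37, with HTSeq at its default, strand-aware settings per the study's methods, although the TruSeq RNA kit is not stated to keep strand. The deposited table is called normalised, but its values are whole numbers whose totals differ between libraries, so they were used as raw counts per gene.

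The 8 CHL1 and 10 A375 libraries were fitted separately, and all 18 together for differences between lines, with 1 mean per group, by the quasi-likelihood test of edgeR 4.0.16 (R 4.3.3) with TMM factors and Benjamini-Hochberg adjustment over 20705 genes at a threshold of 0.05. No gene was filtered out. The script was tested on simulated data. Alternatives were DESeq2 1.42.0, voom in limma 3.58.1, median-of-ratios scaling, a filter of 1 CPM in at least 2 libraries, other sets of libraries, a replicate term, each library left out in turn, and a GC correction. The correction entered a loess curve (span 0.4) of each library's deviation on the GC content of the longest transcript as an offset, for 16332 genes matched by symbol or older symbol to GENCODE release 44 on GRCh37. A member at 3 counts or fewer in a group was given as a ratio with a counting interval. In each comparison up to 4 members called higher and up to 4 called lower with the largest change and a mean of 1 CPM or more in the line were given in full, with 1 gene in each direction from each related list. Gene lists and members were chosen with earlier results of these data known. In each of the 9 groups the replicate libraries were further apart than sampling noise allows. Promoter windows came from RefSeq on GRCh38.p14. Counts over the 35 members include 1 gene whose own values are not reported here.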

Additional observations from a re-analysis of the deposited data

Results flagged for a closer look

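Differences between the lines in the response to the same inhibitor were tested as an interaction term in edgeR's fit of all 18 libraries, and those past the threshold are listed here as A375 minus CHL1 on the log2 scale. No test for a stray sample was possible in groups of 2.

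For CDK4/6i at 72 hours 1 member differed, ITGA3, by -1.3. For PRMT5i 13 members differed. Of those given in full, 4 responded lower in A375: ITGA4 by -1.03, ITGAV by -0.68, ITGB8 by -1.5 and LAMA2 by -1.25. The others responded higher there: ITGB3 by 1.16, LAMA5 by 1.57 and LAMB2 by 2.

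With the GC correction the PRMT5i differences became -0.07 for ITGA4, 0.83 for ITGAV, -0.5 for ITGB8 and 0.04 for LAMA5, none of which was called. ITGB3, at 0.82, was not called either (edgeR adjusted p = 0.094). LAMA2 stayed at -1.24 (edgeR adjusted p = 0.00795) and LAMB2 was at 0.76 (edgeR adjusted p = 0.00654). The CHL1 PRMT5i libraries are the pair whose values fell with GC content, at -2.48 and -1.97 on the log2 scale, against 0.12 and 0.21 in those of A375.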

How the results depend on the processing

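The counts of members called moved by more than 1.5 times under these alternatives. The share of all genes that each fit called stands in brackets. Leaving out 1 library, which left 1 in a group, moved them too, except for PRMT5i in CHL1 and the line difference under PRMT5i. CHL1 CDK4/6i at 72 hours, with 2 (4.98%), gave 4 by DESeq2 (8.09%) and 8 with the GC correction (13.7%). It gave 13 when the fit held the compared groups alone (20.3%) and 7 without the PRMT5i libraries (10.1%). CHL1 at 6 days, with 5 (16.6%), gave 12 with the GC correction (28.3%), 8 with only the compared groups (18.6%) and 8 without the PRMT5i libraries (24%). CHL1 PRMT5i, with 19 (54%), gave 11 with the GC correction (29.2%). A375 CDK4/6i at 72 hours, with 7 (13.3%), gave 16 with only the compared groups (33.5%) and 15 with only the 72-hour libraries (31%). A375 PRMT5i, with 2 (2.61%), gave 0 by limma voom (1.12%) and with median-of-ratios scaling (2.45%). It gave 5 with only the compared groups (8.99%) and 9 with only the 72-hour libraries (15.8%). CHL1 at 6 days against 72 hours, with 0 (0.0145%), gave 1 by DESeq2 (0.309%). The A375 response at 6 days minus 72 hours, with 0 (1.08%), gave 3 by DESeq2 (5.53%). It gave 2 with the GC correction (1.35%) and 1 with all 18 libraries (1.19%). With 1 library left out it gave 0 to 10, the 10 being without 6-day control replicate 2. The share of all genes called rose in that fit as well, so the 10 does not set the members apart. The line difference under CDK4/6i, with 1 (0.642%), gave 4 by DESeq2 (1.73%), 0 by limma voom (0.478%), 4 with the GC correction (2.98%) and 2 among genes with a GC value (0.876%). That under PRMT5i, with 13 (40.9%), gave 7 with the GC correction (20.7%). A375 at 6 days (15) and the control lines (26) stayed within 1.5 times under every alternative run. The causes were not tested.

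With the GC correction, called members changed sign under PRMT5i in CHL1 (ITGAV to log2 -0.42, ITGA4 -0.05, ITGB1 -0.2, ITGA1 -0.15, ITGA2 -0.29 and LAMC3 0.01), in A375 at 6 days (ITGAV from -0.55 to 0.66, called both ways, and ITGB1 from -0.66 to 0.02) and in the line difference under PRMT5i (ITGAV from -0.68 to 0.83), and apart from ITGAV at 6 days none was then called. ITGA9 and ITGB8 in A375 at 6 days turned to 0.79 and 0.7 against the 72-hour control. Among named values, limma voom ended 9 calls, median-of-ratios scaling 3, and leaving out 1 library 69 while 163 held.

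The labels do not say what libraries of the same replicate number share. Their deviations from the group means had correlations of 0.22 to 0.48 between each pair of A375 groups at 72 hours, where the library names carry the number, and of -0.34 to 0.45 in CHL1, with 2 libraries a group, so pairing is possible in the former and not seen throughout the latter. The A375 numbers at 6 days are only accession order. With a replicate block, counts rose to 21 for A375 CDK4/6i at 72 hours (42.3% of all genes called), 21 for A375 PRMT5i (29.5%) and 6 for the line difference under CDK4/6i (2.41%). With the block and the GC correction they were 17 (46.6%), 22 (33.4%) and 7 (7.19%), and in CHL1 8 for CDK4/6i at 72 hours (14.8%), 12 at 6 days (29.5%) and 11 for PRMT5i (30.3%), with ITGAV at -0.42 and ITGA4 at -0.05. With the 6-day CHL1 numbers crossed, 6 days against 72 hours gave 0 calls. The fits without the PRMT5i libraries, among genes with a GC value and with crossed numbers were chosen after seeing the data.

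Groups of 2 and totals of 16213475 to 37424081 counts limit the members under 1 CPM, among them ITGA8, ITGAM and LAMB4 in both lines, where a fold change rests on few counts.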
